A study of Schizosaccharomyces pombe with 12 samples.

Results

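The genes described here encode the proteins of the cytosolic ribosome of *Schizosaccharomyces pombe*, the fission yeast. They were picked by name: a probe set was counted where its gene symbol had the form of a large subunit (*rpl*), small subunit (*rps*) or stalk (*rpp*) protein gene, and where its description, if one was given, was that of a cytosolic ribosomal protein. By this rule 134 of the 4875 *S. pombe* probe sets were members, 74 of them *rpl*, 53 *rps* and 7 *rpp*. They stand for 129 distinct genes, since 5 genes had more than 1 probe set. Another 2 probe sets, annotated with 2 ribosomal protein genes each, were not counted. No measured value entered the rule, though it was chosen with earlier results of these data known.

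Total RNA was measured on 12 Affymetrix Yeast Genome 2.0 arrays. The strain *rpb1-12XCTD* carries an Rpb1, the largest subunit of RNA polymerase II, whose C-terminal domain (CTD) holds 12 wild-type heptad repeats, and in *rpb1-12XS2ACTD* the serine at position 2 of the 12 repeats is alanine, so both strains carry a CTD of the same reduced length. Each was grown in YES medium and given 0.5 µM LatA (latrunculin A, which binds actin monomers and keeps them from polymerizing) or its solvent DMSO for 3 h, which makes 4 groups of 3 biological replicates. The comparisons ask how the ribosomal protein mRNAs differed between the strains with either treatment, and how they changed with LatA in either strain. A value is a log2 intensity minus the median of its probe set over the 12 arrays. It therefore compares arrays, and it says nothing of how abundant an mRNA was next to another. RNA came from whole cultures, in which a lower level in all cells and fewer cells with the mRNA cannot be told apart.

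The cytosolic ribosome joins a 60S subunit, which forms peptide bonds, to a 40S subunit, which decodes mRNA. In yeasts most of its proteins are encoded by duplicated genes whose products are almost or entirely alike, and the mRNAs are among the most abundant in a growing cell. Their transcription is coordinated and is tied to nutrient supply through the TOR kinase, and many yeast stress responses lower it together with that of the genes that assemble ribosomes. By their RefSeq symbols the members fell into 75 protein families, of which 27 had 1 measured gene, 43 had 2 and 5 had 3. The gene *rpl2403*, described next, was in none of these families.

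One member goes by a name that differs between sources. *rpl2403* (SPAC22E12.13c) is listed in RefSeq as *rlp24*, and in yeasts Rlp24 is not a protein of the finished ribosome but an assembly factor of the 60S subunit, exchanged for Rpl24 in the cytoplasm. It met the rule and was kept as a member. It is also the only member on the study's list of 104 genes that fall in a common stress response of this yeast, and no member is on the study's lists of stress-induced, general stress response or cytokinesis genes.

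The ribosomal protein mRNAs were among the steadiest measured. The standard deviation (SD) of a member over the 12 arrays had a median of 0.0432 on the log2 scale, against 0.214 over all probe sets, a ratio of 4.95. Of the 134 members, 125 (93.3%) lay in the lowest 5% of all probe sets by SD. On no array did 131 of the members (97.8%) stray further than 0.25 from 0, a bound that 18.6% of all probe sets kept. The 60S, 40S and stalk genes had similar spreads, with median SDs of 0.044, 0.0414 and 0.048. The low spread was also present among replicates of a group, where the median SD of a member was 0.0457 against 0.137 for all probe sets. The deposited values do not hold the intensity itself, so how strongly these probe sets respond to a change in RNA was not analysed here.

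**Figure D1:**
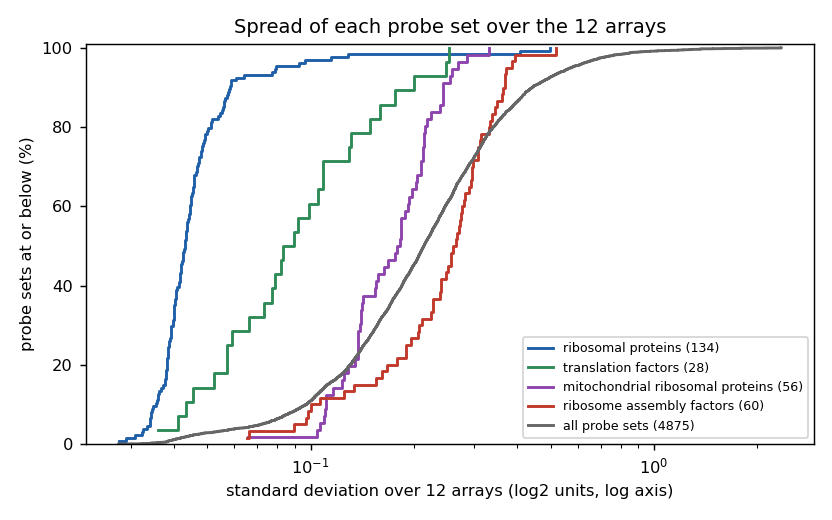
Cumulative share of probe sets (y axis, %) at or below a given SD over the 12 arrays (x axis, log2 units on a log axis) for the ribosomal protein genes, 3 related gene groups and all probe sets. The curve of the ribosomal protein genes (median 0.0432) lies to the left of those of the translation factors (0.0862), mitochondrial ribosomal proteins (0.181), all probe sets (0.214) and ribosome assembly factors (0.263).

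The steadiest member was *rps601* (SPAC13G6.07C), which encodes Rps6, a small subunit protein phosphorylated downstream of TOR. In *rpb1-12XCTD* its values were −0.012, −0.082 and 0.006 with DMSO and −0.023, 0.000 and −0.000 with LatA. In *rpb1-12XS2ACTD* they were 0.006, −0.034 and 0.015 with DMSO and 0.001, −0.035 and 0.011 with LatA. The 4 groups overlapped, and the SD over the arrays was 0.0276. The next were *rps2601* (SD 0.029), for a protein at the mRNA exit of the small subunit, and *rps1102* (SD 0.0307). At the other end stood *rpl2403* with an SD of 0.499, *rpl1603* with 0.408 and, well below both, *rps1401* with 0.129. The SD of *rpl2403* was above that of 92.6% of all probe sets and that of *rpl1603* above that of 87.2%.

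The small movements that the members did make were shared. The median of the members on an array ranged from −0.0918 to 0.0466, and within an array the 10th and 90th percentiles of the members were only 0.039 to 0.0862 apart, against 0.474 to 0.779 for all probe sets. In *rpb1-12XCTD* with DMSO the medians were −0.0268, −0.0918 and 0.0466, and on the array of replicate 3 all 134 members were above 0 while on that of replicate 2 131 were below it. With LatA in this strain they were 0.0133, −0.0026 and 0.0187. In *rpb1-12XS2ACTD* they were 0.0201, −0.0393 and −0.000519 with DMSO and 0.0134, −0.0484 and 0.003 with LatA. The 4 groups overlapped in the members' median, and the array of replicate 2 was the lowest in 4 of 4 groups. In all 4 groups 77 of the members (57.5%) were lowest on replicate 2, as were 4.64% of all probe sets. No source used here says what the replicate number marks.

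**Figure D2:**
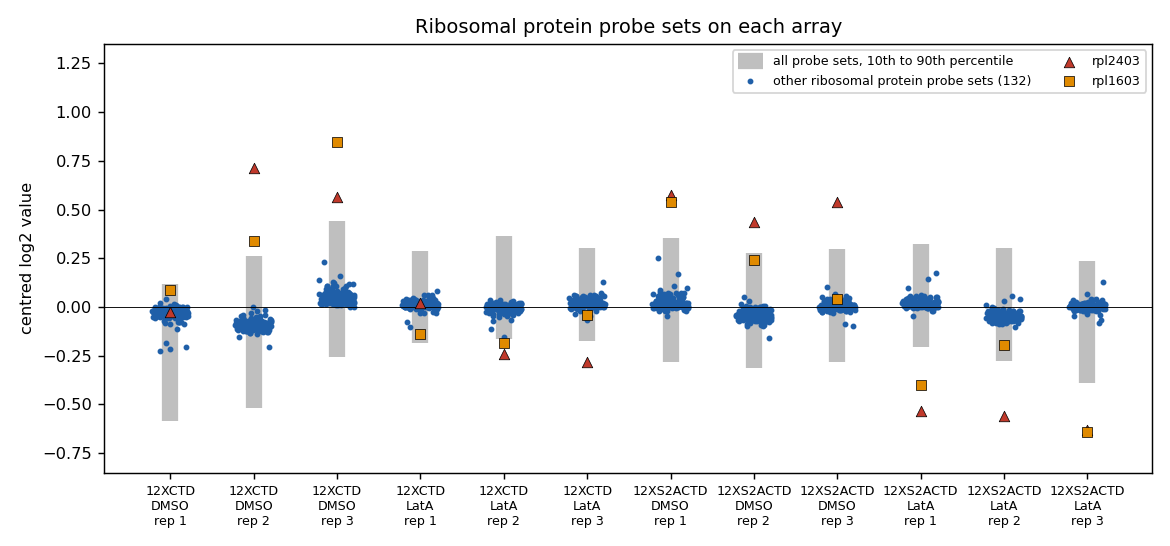
Centred log2 value (y axis) of the ribosomal protein probe sets on each of the 12 arrays (x axis), with *rpl2403* and *rpl1603* marked apart and grey bars from the 10th to the 90th percentile of all probe sets. The other 132 members form a narrow band that shifts as a whole from array to array, while the marked genes lie above it on most DMSO arrays and below it on most LatA arrays.

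Over the 12 arrays the median Pearson correlation between a pair of members was 0.805, and it was 0.882 for deviations from the group means, so that the members moved together among replicates too. For all pairs of probe sets these medians were 0.194 and 0.339. The ribosome assembly factors had 0.806 and 0.85, the translation factors 0.554 and 0.722, and the mitochondrial ribosomal proteins 0.422 and 0.634. These correlations are descriptions: all points share the same 12 hybridizations, and an offset of an array enters every pair. Against the median of the other members, 114 of the 134 members had an r over 0.8 and 4 had an r under 0.5. These 4 were *rpl2403* (−0.131), *rpl1603* (0.0623), *rpl102* (0.362) and *rpl3402* (0.437).

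With DMSO, no ribosomal protein gene was called different between the strains. A call needed a fold change over 1.5 (0.585 on the log2 scale) together with a limma p under 0.05 after Benjamini-Hochberg adjustment across the 4875 probe sets. Of the 134 members 0 were called, while 0.862% of all probe sets were. No member had an unadjusted p under 0.05, against 827 of the 4875 probe sets, and the lowest adjusted p of a member was 0.437. For no member did the 3 arrays of one strain lie wholly above or below those of the other, whereas those of *rpb1-12XS2ACTD* lay wholly above for 8.35% of all probe sets and wholly below for 1.19%. All 134 members had a 95% confidence interval that lay within 1.5 fold in both directions, which held for 79% of all probe sets. The difference, *rpb1-12XS2ACTD* minus *rpb1-12XCTD*, had a median of 0.0186 over the members and 0.064 over all probe sets, with 125 members above 0 and 9 below, but this sign turned when each array was centred on its own median (−0.0468, with 3 above and 131 below) and with quantile normalization (−0.0424), and it was −0.0148 without *rpb1-12XCTD* DMSO replicate 2. The median standard error of a member was 0.0621 here and in the other comparisons of 2 groups. The paper describes a t-test for each gene, which uses only the gene's own spread. Equal variances were assumed for it here, and it is called the test of the methods below. By this test the median standard error was 0.0238 to 0.0463 over these 4 comparisons.

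The members that lay furthest from 0 with DMSO were also far from a call. *rpl102* (SPBC30D10.18c), for the protein of the L1 stalk that guides spent tRNA out of the ribosome, had the highest difference, 0.13 (adjusted p = 0.437, limma). Its 3 values in *rpb1-12XCTD* were −0.228, −0.043 and 0.109 and those in *rpb1-12XS2ACTD* 0.085, 0.052 and 0.103, so the groups overlapped. *rpl1603* was lowest at −0.15 (adjusted p = 0.739, limma). *rpl2403* and *rpl3002* were at 0.098 and 0.071, and *rps2802* and *rpl3701* (RefSeq *rpl35A02*) at −0.019 and −0.012.

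With LatA, the strains again had no ribosomal protein gene called between them (0 of 134, against 2.89% of all probe sets). *rpl2403* was the only member with an unadjusted limma p under 0.05, against 1120 of the 4875 probe sets. The test of the methods had 9 such members and called 0 of them, where it called 152 of all probe sets. The interval lay within 1.5 fold for 132 members (98.5%) and for 75.3% of all probe sets, with *rpl2403* and *rpl1603* as the exceptions. The median difference was −0.022, with 25 members above 0 and 109 below, and it changed sign with median centring (0.00612) and quantile normalization (0.0166) and was −0.00098 without *rpb1-12XS2ACTD* LatA replicate 2. With the replicate number as a block on the 6 LatA arrays alone, 244 probe sets were called in place of 141 and still no member, and *rpl2403* had an adjusted p under 0.05. The 3 arrays of *rpb1-12XS2ACTD* lay wholly below those of *rpb1-12XCTD* for 22 members and wholly above for 1, where 32.1% and 15.6% of all probe sets did so. The one above was *rpp202* (SPBC23G7.15c), described with the other stalk genes. Apart from *rpl2403*, *rpl1603* and *rpl802* (SPBC2F12.07c, a protein at the catalytic centre of the 60S subunit, −0.091, adjusted p = 0.438, limma), every member was within 0.09 of 0 on the lower side.

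For LatA in *rpb1-12XCTD* the test of the methods called only 15 of all probe sets, and no ribosomal protein gene. limma called 642 probe sets (13.2%), and no ribosomal protein gene passed both thresholds. Without the fold threshold 35.7% of all probe sets passed and 2 of the 134 members did, *rpl2403* and *rpl1603*, both lower with LatA. That count of 2 became 7 with quantile normalization, adding *rpl102*, *rps2202*, *rps1801*, *rpp202* and *rps2802*, all lower, and it was 1 with array weights or the replicate block and 0 with the 2 groups alone or the test of the methods. It ranged from 0 to 3 over the arrays left out, and without DMSO replicate 3 the 3 were *rpl2403*, *rps1401* (0.245) and *rpl3002* (0.168). It was 0 without DMSO replicate 2, LatA replicate 2 or LatA replicate 3. For the other 132 members the interval lay within 1.5 fold, as it did for 61.2% of all probe sets. A change smaller than 0.1 was measured in 131 members and in 25.7% of all probe sets. The median change was 0.038, with 120 members above 0 and 14 below, but it was −0.0559 after median centring, with 1 above and 133 below, and −0.0612 after quantile normalization, and it ranged from 0.00214 without DMSO replicate 2 to 0.072 without DMSO replicate 3. The LatA arrays lay wholly above the DMSO arrays for 5 members (32.3% of all probe sets) and wholly below for 1 (10.6%). Among the 40S genes *rps401* was next to *rps1401* at 0.083 (adjusted p = 0.357, limma), a value that was −0.0112 after median centring, and *rps2202* had the lowest change, −0.098 (adjusted p = 0.472, limma). *rpl502*, whose protein binds the 5S rRNA in the 60S subunit, was at 0.082 (adjusted p = 0.378, limma) and at −0.0117 after median centring.

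In *rpb1-12XS2ACTD* LatA called 561 probe sets (11.5%), 5.37% of all being lower, and 2 of the 134 members (1.49%), *rpl2403* and *rpl1603*, both of which fell. Without the fold threshold 33.3% of all probe sets passed, and no further member did, though *rps1401* did under some alternatives given with its values. The intervals of the other 132 lay within 1.5 fold (62.7% of all probe sets). The members' median change was −0.0024, with 63 above 0 and 71 below, and it lay on either side of 0 over the arrays left out, from −0.0199 without DMSO replicate 2 to 0.0159 without LatA replicate 2. The LatA arrays lay wholly below the DMSO arrays for 7 members, against 29.1% of all probe sets, and wholly above for 1, against 27.7%.

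**Figure D3:**
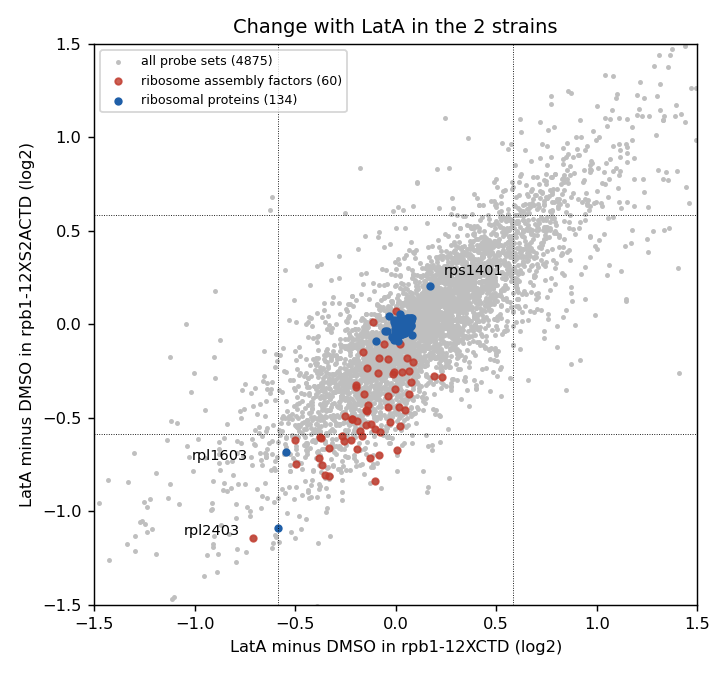
Log2 change with LatA in *rpb1-12XCTD* (x axis) and in *rpb1-12XS2ACTD* (y axis) for all probe sets, of which 53 lie outside the axes, the 60 ribosome assembly factors and the 134 ribosomal protein genes, with dotted lines at 1.5 fold. The ribosomal protein genes cluster at 0, apart from *rpl2403* (−0.585 and −1.09), *rpl1603* (−0.546 and −0.685) and *rps1401* (0.169 and 0.207).

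*rpl2403* fell the most of all members. In *rpb1-12XCTD* its values were −0.023, 0.713 and 0.566 with DMSO and 0.023, −0.241 and −0.281 with LatA. In *rpb1-12XS2ACTD* they were 0.573, 0.438 and 0.538 with DMSO and −0.536, −0.557 and −0.629 with LatA. The groups of *rpb1-12XS2ACTD* were far apart, while those of *rpb1-12XCTD* overlapped through a single low DMSO array, that of replicate 1. The fall was 2.13-fold in *rpb1-12XS2ACTD* (log2 change −1.09, SE 0.159, 95% interval −1.44 to −0.74, adjusted p = 0.000862, limma). It was called without any one of the 12 arrays, with changes from −1.13 to −1.06.

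In *rpb1-12XCTD* the change of *rpl2403* was −0.585 (SE 0.159, adjusted p = 0.0152, limma), which missed the fold threshold by 0.00042. With each array left out in turn this change ranged from −0.805 to −0.437 and its adjusted p from 0.000322 to 0.0584, and without DMSO replicate 1, at −0.805, the gene passed both thresholds. On that same array the median of the assembly factors was −0.271, against 0.376 and 0.202 on the other DMSO arrays of the strain, and the median of all probe sets was −0.164. The part of that array's offset in the value of *rpl2403* was not tested. The LatA changes of the strains, *rpb1-12XCTD* subtracted, differed by −0.51 (SE 0.225, adjusted p = 0.452, limma), which did not pass the test. With LatA the difference between the strains was −0.41 (adjusted p = 0.151, limma), with no overlap between the arrays. This adjusted p depended on the arrays in the fit. It ranged from 0.0193 without DMSO replicate 1 of *rpb1-12XCTD* to 0.401 without LatA replicate 1 of that strain. It was 0.0154 with the 2 groups alone, 0.0113 with the replicate block on those arrays and 0.00689 with array weights, where the difference was −0.345, and the fold threshold was not reached in any of these.

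Over the arrays *rpl2403* followed the genes of ribosome assembly more closely than those of the ribosome. Its values had a Pearson r of 0.898 and a Spearman rho of 0.832 with the median of the 60 assembly factors over the 12 arrays, and −0.131 and 0.049 with the median of the other members. With the median of the mitochondrial ribosomal proteins r was 0.346 and rho 0.329. The arrays are the same on both sides of these correlations, which are given without a test. The assembly factors fell with LatA, so another gene that fell with it could also reach a high r with their median. The share of all probe sets with such an r was not looked at. Only 1 of the 60 assembly factors had a larger fall in either strain. The mRNAs of *rpl24* (RefSeq *rpl2401*, SPAC6G9.09c) and *rpl2402* (SPCC330.14c), for the Rpl24 protein that replaces Rlp24 in yeasts, stayed near 0. In *rpb1-12XS2ACTD* *rpl24* was at 0.079, −0.026 and 0.013 with DMSO and 0.010, −0.078 and −0.010 with LatA, a change of −0.048 (adjusted p = 0.635, limma), and *rpl2402* changed by −0.053 (adjusted p = 0.537, limma).

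*rpl1603* (SPBC2G2.05) is one of 3 genes for Rpl16, a large subunit protein. In *rpb1-12XCTD* its values were 0.089, 0.339 and 0.848 with DMSO and −0.139, −0.185 and −0.040 with LatA. In *rpb1-12XS2ACTD* they were 0.539, 0.243 and 0.040 with DMSO and −0.399, −0.194 and −0.641 with LatA. The LatA arrays lay below the DMSO arrays in both strains, with a wide scatter among replicates. The fall in *rpb1-12XS2ACTD* was 1.61-fold (log2 change −0.685, SE 0.188, adjusted p = 0.017, limma). It was not called without DMSO replicate 1 (−0.553, adjusted p = 0.0623, limma), without LatA replicate 3 (−0.57, adjusted p = 0.0712, limma) or by the test of the methods (adjusted p = 0.0646).

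In *rpb1-12XCTD* the change of *rpl1603* was −0.546 (adjusted p = 0.0418, limma), under the fold threshold. The adjusted p ranged from 0.011 to 0.12 over the arrays left out, and without DMSO replicate 1 the change was −0.715 and passed both thresholds. The same difference between the strains did not pass the test for *rpl1603* (−0.14, 95% interval −0.72 to 0.45, adjusted p = 0.85, limma). The Pearson r of *rpl1603* over the 12 arrays was 0.67 with the median of the assembly factors and 0.0623 with that of the other members. It was 0.464 with the median of the mitochondrial ribosomal proteins.

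The other genes for Rpl16 stayed near 0. *rpl1601* had values of 0.000, −0.021 and 0.039 with DMSO and −0.007, −0.066 and −0.000 with LatA in *rpb1-12XS2ACTD*. *rpl1602* had 0.026, −0.033 and −0.002 with DMSO and 0.002, −0.038 and −0.005 with LatA. Their arrays overlapped between the treatments, and the gap between the highest and lowest change within the family was 0.604 in *rpb1-12XCTD* and 0.675 in *rpb1-12XS2ACTD*.

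**Figure D4:**
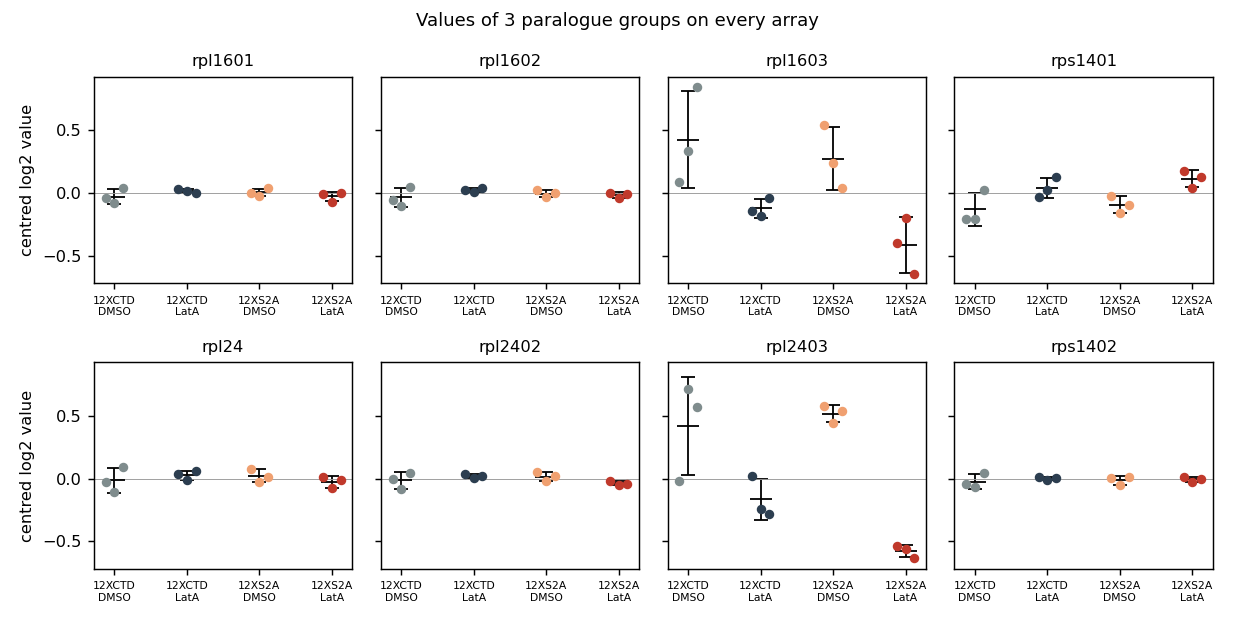
Centred log2 values (y axis) of the genes for Rpl16, of *rpl24*, *rpl2402* and *rpl2403*, and of the genes for Rps14 in the 4 groups (x axis). Each point is an array, and the black marks are the mean and SD of 3 arrays; *rpl1603* and *rpl2403* are lower with LatA while *rpl1601*, *rpl1602*, *rpl24* and *rpl2402* stay near 0.

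Gaps between copies of the same protein were otherwise small, as were the changes of most members. Of the 75 families 48 had at least 2 measured genes, and the gap between their highest and lowest change with LatA had a median of 0.0271 in *rpb1-12XCTD* and 0.0368 in *rpb1-12XS2ACTD*. In 45 of the 48 it was under 0.1 in either strain. The change itself was under 0.1 for 131 members in *rpb1-12XCTD* and for 131 in *rpb1-12XS2ACTD*, so small gaps would arise among most members. Gaps between genes of different families were not measured. Whether copies were closer to each other than to other members was therefore not tested. The 5 genes with several probe sets gave gaps of 0.001 to 0.017 between them. Copies can be so alike that a probe set may also detect the other copy, and this was not tested; 7 members carry a name ending that marks a match to several transcripts.

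After *rpl16* the widest gap among these families, which do not hold *rpl2403*, was that of *rps14* (0.145 and 0.200). Its protein lies on the platform of the 40S subunit. *rps1401* (SPAC3H5.05C) was at −0.204, −0.205 and 0.024 with DMSO and −0.029, 0.022 and 0.129 with LatA in *rpb1-12XCTD*. In *rpb1-12XS2ACTD* it was at −0.022, −0.157 and −0.097 with DMSO and at 0.176, 0.043 and 0.127 with LatA. The arrays overlapped in the first strain and not in the second, and the changes were 0.169 (adjusted p = 0.135, limma) and 0.207 (adjusted p = 0.0758, limma). Its copy *rps1402* was at 0.024 and 0.0079. The families next in order were *rps18* in *rpb1-12XCTD*, with a gap of 0.105 (*rps1802* at 0.061 and *rps1801* at −0.044), and *rpp2* in *rpb1-12XS2ACTD*, with 0.110. None of these copies passed the test in this fit. The change of *rps1401* in *rpb1-12XS2ACTD* had adjusted p-values from 0.00373 to 0.208 over the alternatives run. It was under 0.05, with the change still under the fold threshold, with array weights, quantile normalization, median centring, centring on the members, the 2 groups alone (0.0381, limma) and without *rpb1-12XCTD* DMSO replicate 3 (0.0244, limma).

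The stalk of the 60S subunit, which recruits the elongation factors, is built on Rpp0 and carries the acidic proteins P1 and P2. The genes for all of them were measured, and 0 of the 7 were called in any comparison. *rpp0* changed by 0.074 with LatA in *rpb1-12XCTD* and by 0.035 in *rpb1-12XS2ACTD* (adjusted p = 0.393 and 0.706, limma). The P1 genes *rpp101*, *rpp102* and *rpp103* were at 0.022, 0.054 and 0.043 in the first strain and at −0.034, 0.020 and 0.007 in the second. Of the P2 genes, *rpp201* was at 0.037 and 0.031 and *rpp203* at −0.017 and −0.067. *rpp202* was at −0.012, −0.153 and −0.065 in *rpb1-12XCTD* and at 0.064, 0.032 and 0.065 in *rpb1-12XS2ACTD* with LatA. These arrays did not overlap, and the difference of 0.13 did not pass the test (adjusted p = 0.319, limma). It did with array weights (0.154, adjusted p = 0.0206, limma) and with quantile normalization (0.23, adjusted p = 0.0222, limma), still under the fold threshold.

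A change with LatA that differed between the strains was called in 0 of the 134 members and in 0.0205% of all probe sets, which is 1 probe set. At an unadjusted limma p under 0.05 it was found in 1 member, *rpl2403*, and in 536 of all probe sets. The interval of 132 members lay within 1.5 fold, as did that of 60.2% of all probe sets. The median of this difference was −0.039 over the members and −0.12 over all probe sets, with 14 members above 0 and 120 below, but it was 0.055 over the members after median centring, with 129 above and 5 below, and 0.0613 after quantile normalization, and it ranged from −0.0741 without *rpb1-12XCTD* DMSO replicate 3 to −0.00368 without DMSO replicate 2 of that strain. After *rpl2403* the member furthest below 0 was *rpl502* (−0.14, adjusted p = 0.572, limma), and those furthest above were *rpp202* (0.078), *rps1401* (0.038) and *rpl4101* (0.036), for the smallest protein of the ribosome.

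Other genes that make, regulate or use ribosomes had larger spreads over the arrays, with median SDs from 0.0862 to 0.297 over 6 lists. Assembly factors process rRNA and join proteins to it. Of 60 such genes 1 was called lower with LatA in *rpb1-12XCTD* and 19 (31.7%) in *rpb1-12XS2ACTD*, with none higher. Over all 4875 probe sets 126 and 262 were called lower. The median changes of the assembly factors were −0.124 and −0.476. The LatA arrays of *rpb1-12XS2ACTD* lay wholly below its DMSO arrays for 56 of the 60, against 29.1% of all probe sets. *dbp3*, an RNA helicase of 60S assembly, fell, with changes of −0.708 in *rpb1-12XCTD* and −1.14 in *rpb1-12XS2ACTD* (adjusted p = 0.002 and 0.000363, limma). The kinase gene *rio1*, of 40S maturation, fell by 0.839 in *rpb1-12XS2ACTD* (adjusted p = 0.00426, limma) and was at −0.105 in *rpb1-12XCTD* (adjusted p = 0.666, limma). Without DMSO replicate 1 of *rpb1-12XCTD*, an array low in these genes, 4 of the 60 were called lower in that strain and the median change was −0.287. That array was picked for being low, so leaving it out favours a larger fall by itself. The effect of leaving out the other arrays on this list was not looked at. For none of the 60 was the difference between the strains in the LatA change called.

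Of 15 genes for RNA polymerase I and its factors, which transcribe the rRNA, 4 were called lower with LatA in *rpb1-12XS2ACTD* and 0 in *rpb1-12XCTD*, with median changes of −0.386 and −0.110. They included the subunit genes *rpa12* (−0.777, adjusted p = 0.004, limma) and *ker1* (−0.69, adjusted p = 0.0466, limma). The difference between the strains in the LatA change was called for 0 of the 15 (lowest adjusted p = 0.426, limma). Their median SD among the DMSO arrays was 0.311 in *rpb1-12XCTD* and 0.0619 in *rpb1-12XS2ACTD*. Among 3 chaperones that hold new ribosomal proteins, *acl4*, which in budding yeast guards Rpl4, was called lower in both strains (−0.794 and −1.27, adjusted p = 0.02 and 0.00236, limma). Of 28 translation factors 0 were called, with medians of −0.000266 and −0.114. The mitochondrial ribosomal proteins had 1 of 56 called, *mrp10* in *rpb1-12XS2ACTD* (−0.634, adjusted p = 0.0129, limma), and medians of 0.035 and −0.072. Of 25 genes of the TOR pathway and of known regulators of ribosomal protein genes 1 was called, *psk1*, for the kinase of Rps6 (−0.606 in *rpb1-12XS2ACTD*, adjusted p = 0.000647, limma), while the list's medians were 0.235 and 0.191. The medians of all probe sets were 0.098 and −0.0086, and 13.2% and 11.5% of them were called in either direction. The lists share genes: 2 are both assembly and translation factors, and 1 is on both the RNA polymerase I and TOR lists.

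**Figure D5:**
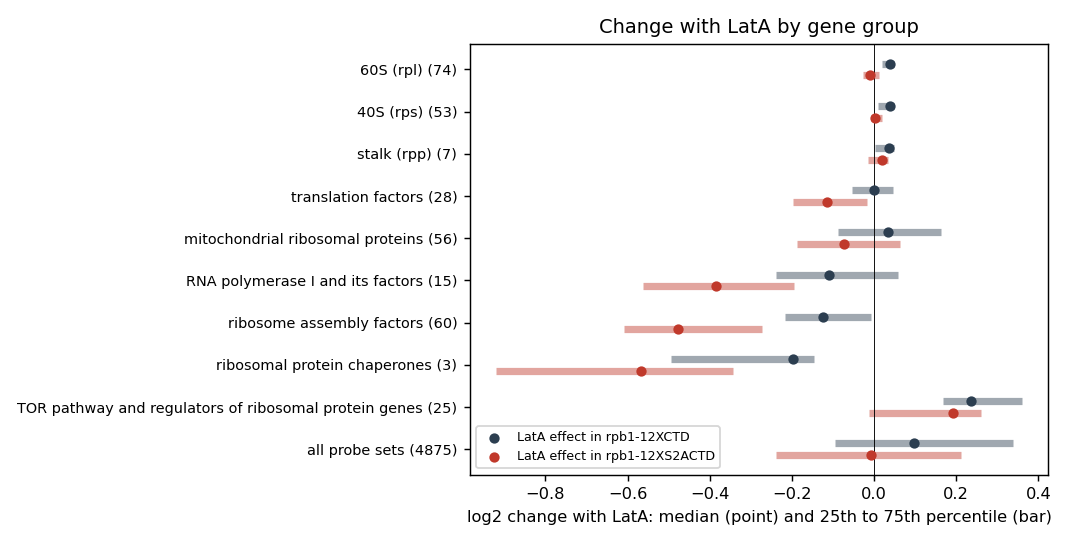
Log2 change with LatA (x axis) of the ribosomal protein genes by class, of 6 related gene groups and of all probe sets (y axis, with the number of probe sets), as the median (points) and the 25th to 75th percentile (bars) in each strain. The *rpl*, *rps* and *rpp* genes sit at 0 with short bars, while the assembly factors, at −0.124 in *rpb1-12XCTD* and −0.476 in *rpb1-12XS2ACTD*, and the RNA polymerase I genes lie below it.

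Facts of the whole series that bear on these values are few. Arrays of DMSO-treated *rpb1-12XCTD* scattered most, with a median SD between replicates of 0.0714 for the members and 0.195 for all probe sets, against 0.0179 and 0.0684 with LatA in that strain. The single fit assumes the same spread in each group, so a p for a comparison with those arrays may be too small. A p for a comparison without them may be too large. For the strain difference with LatA the median SE of a member was 0.0621 in this fit and 0.0456 with the 2 groups alone. The probe sets called were 141 and 235, and the members with an adjusted p under 0.05 were 0 and 1. The number of arrays, 3 in a group, limits the precision of every value.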

How the data were processed

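Total RNA of 2 strains with either treatment was hybridized to 12 arrays. The authors normalized the arrays by RMA in Genespring GX 10.0.1 and deposited them as log2 values. The table is centred, with a median of 0 for each probe set, and no source used here describes that step, so the level of a probe set is not kept. No value was missing.

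The members, the 6 comparison lists and the tests were chosen with earlier results of these data known. Members were named through the study's supplementary file (61) or through the annotation of the array alone (73), and RefSeq gave current symbols. limma 3.58.1 in R 4.3.3 fitted 4 group means to the 12 arrays over all 4875 probe sets, and 5 comparisons were drawn from this fit. Calls needed a fold change over 1.5 and a Benjamini-Hochberg adjusted p under 0.05. Counts and tables were made in Python 3.11.15 with pandas 2.3.3. The script was tested on simulated data. The replicate numbers were taken to pair 2 groups where every same-numbered pair of arrays had an r over 0.1. The 2 treatments of *rpb1-12XS2ACTD* came near this limit, with 0.148, 0.074 and 0.23. It was met in 1 of 6 pairs of groups, the 2 strains with LatA. There all same-numbered arrays deviated together over all probe sets (r from 0.198 to 0.342). Over the members alone r ran from −0.257 to 0.085, but this r leaves out a shift that all members of an array share. The members' median was lowest on replicate 2 in all 4 groups, not only in these 2. No source gives a shared culture or day.

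The named genes are every member called, the 3 highest and 3 lowest members of each comparison, the 3 of lowest and highest SD, the stalk genes, the 3 families whose copies differed most, and up to 2 called genes of each comparison list. *rpl24*, *rpl2402*, *rpl3402* and *rpl1601* were named after their values were seen. Alternatives were the test of the methods (a t-test of each gene alone, with equal variances assumed here), 2 groups in the fit, the replicate number as a block, array weights, quantile normalization, median centring, limma's robust and trend settings, multi-match probe sets left out, no fold threshold and each array left out. Quantile normalization was run on the centred values, so it gave every array the same distribution of deviations, not of intensities. Centring on the members, leaving out *rpl2403* and the replicate block on the LatA arrays alone were added after seeing the data. Promoter motifs were not analysed here.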

Additional observations from a re-analysis of the deposited data

How the results depend on the processing

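The count of members called was 0 for both strain differences and for the interaction under every alternative run. For LatA in *rpb1-12XCTD* the count of 0 became 1 with array weights, 2 with median centring, 2 with quantile normalization, 1 with centring on the members, 2 without the fold threshold, and ranged from 0 to 2 over the arrays left out (2 without DMSO replicate 1, 1 without LatA replicate 1). For LatA in *rpb1-12XS2ACTD* the count of 2 became 1 with the test of the methods and 1 with *rpl2403* left out, and ranged from 1 to 2 over the arrays left out (1 without DMSO replicate 1 or LatA replicate 3). The members' median change moved to −0.0468 and −0.0424 (genotype with DMSO), −0.0559 and −0.0612 (LatA in *rpb1-12XCTD*) and 0.055 and 0.0613 (interaction) with median centring and quantile normalization, while the medians of all probe sets on the arrays, which these settings remove, ranged from −0.164 to 0.0697. Over the arrays left out the members' medians ran from −0.0148 to 0.0562 and from −0.0361 to −0.00098 (strain differences with DMSO and LatA), from 0.00214 to 0.072 and from −0.0199 to 0.0159 (LatA in *rpb1-12XCTD* and *rpb1-12XS2ACTD*) and from −0.0741 to −0.00368 (interaction).

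Single genes changed sign only where they were not called. With DMSO the strain difference of *rpl2403* was −0.0481 with array weights and ran from −0.123 to 0.245 over the arrays left out. That of *rpl1603* ran from −0.32 to 0.06, that of *rps2802* was 0.00859 with array weights and ran from −0.0704 to 0.0291, and that of *rpl3701* ran from −0.0511 to 0.0309. With LatA in *rpb1-12XCTD*, *rps401* was −0.0112 with median centring and −0.00484 with quantile normalization, and *rpl502* was −0.0117 with median centring. The interaction ran from −0.35 to 0.0293 for *rpl1603*, from −0.0379 to 0.0825 for *rps1401* and from −0.0224 to 0.12 for *rpl4101*. The cause of these changes was not tested.

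With the replicate number as a block the counts of members called were 0, 0, 0, 2 and 0 in the order of the report. By the limit of r over 0.1 the numbers paired the arrays only for the strain difference with LatA. There the block left 102 probe sets called, and 244 on the LatA arrays alone, against 141, with 0 members called in both. It changed no call of a member in any comparison. In the other pairs of groups at least 1 same-numbered r was at or under 0.1 (7 of 18 over all pairs were above it, from −0.404 to 0.342). A low-signal filter was left out, since the deposited values keep no level.

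Over all probe sets the counts called moved by more than 1.5 times as follows. The strain difference with DMSO, 42, became 87 with array weights, 15 with quantile normalization, 12 with centring on the members and 0 with the 2 groups alone or the test of the methods. That with LatA, 141, became 233 with array weights, 235 with the 2 groups alone, 244 with the block on the LatA arrays, 265 with quantile normalization and 273 without the fold threshold. The LatA effect in *rpb1-12XCTD*, 642, became 15 with the test of the methods and 1738 without the fold threshold, that in *rpb1-12XS2ACTD*, 561, became 1625 without the fold threshold, and the interaction, 1, became 19 with quantile normalization and 0 with robust and trend settings.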

Other observations

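Of the 134 probe sets with the smallest SD over the 12 arrays, 102 were ribosomal protein genes by the rule and 32 were not. The genes named in this paragraph were chosen after their values were seen. Among the 32 were *tef5* (SD 0.0359), *tef3* (0.0412), a probe set of elongation factor 1 alpha annotated *ef1a-c* (0.0435) and *tif512* (0.0455), which were the 4 genes of the translation factor list found there. *cpc2* (0.042) encodes a protein that sits on the small subunit. A probe set annotated *ubi3* (0.0383) and *ubi1* (0.0446) carry symbols of ubiquitin genes. The rule reads symbols, and whether these genes also encode a ribosomal protein was not looked at here. Others were the glycolytic genes *pyk1* (0.0391) and *eno101* (0.0485), the alcohol dehydrogenase gene *adh1* (0.0432), the proton pump gene *pma1* (0.0421) and *pab1* (0.0481), for a protein that binds poly(A) tails. A further 9 of the 32 carried no single gene name. How abundant these mRNAs were cannot be read from the centred values.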
